A study of Rattus norvegicus with 48 samples.

Results

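Among 14418 genes that the authors listed as expressed and protein coding in rat liver slices, 59 were almost silent after a sham operation and were expressed in every slice library from bile-duct-ligated rats, whichever compound the slices received. They were chosen from measured values: CPM, a gene's count scaled by its library's total count, had to lie under 1 in each of the 9 sham libraries and at 5 or more in each of the 39 ligated libraries. Of the genes in that table, 1999 met the sham limit, and 266 of these also reached 5 CPM in every ligated library without a compound. The 59 are the genes of those 266 that stayed at 5 CPM or more with all compounds. Resistance would be the wrong word for them, since the mean of 1 of them with SB525334 was 0.114 of its vehicle level. They are called here the retained genes.

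Ligation of the common bile duct blocks bile flow, and in rodents it leads to proliferation of bile duct cells, inflammation and scarring around the portal tracts. Transforming growth factor beta, acting through the receptor kinase ALK5, is a central driver of scarring in liver, and SB525334 is an inhibitor of that kinase. Kinases of growth factor receptors, among them those for platelet-derived and vascular endothelial growth factors, are targets of sorafenib and nintedanib. A precision-cut slice keeps the cell types of the liver together in culture, so that a compound can be tested on diseased tissue outside the animal.

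The 48 libraries were made from total RNA of rat liver slices. The group Sham_veh (n = 9) came from sham-operated rats and received vehicle. The groups BDL_veh (n = 10), BDL_Sora (n = 10), BDL_Nint (n = 10) and BDL_SB525334 (n = 9) came from bile-duct-ligated rats and received vehicle or 1 compound. Sora and Nint are short forms that the labels do not spell out, read here as sorafenib and nintedanib. No label gives a strain, an age, a sex, a dose, a length of culture or ligation, or the rat a slice was cut from, and there is no sham group with a compound. Several slices may share a rat, so p-values reflect only how far these libraries scatter, and part of that scatter may be technical. In the deposited sample sheet all 9 BDL_SB525334 libraries carry another compound code, and the name in the labels is used here.

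Total counts ranged from 12249470 to 29596987 per library, and 3 counts, taken as the most that a gene seen 0 times could have had, correspond to 0.101 to 0.245 CPM. The genes are given by Ensembl identifiers only, and 0 of the 59 could be matched to a symbol in the reference table used here. Names, known functions, genome positions and promoter sequences of the retained genes are therefore not given, and the labelled tissue could not be checked against liver markers. An earlier analysis of these data set apart BDL_SB525334 libraries 1, 6 and 8 and BDL_veh libraries 3 and 6. In those 3 SB525334 libraries 11.27%, 9.85% and 10.94% of reads mapped non-uniquely, less than in any other library of the group. Counts without these 5 libraries are given beside the counts with them.

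On the CPM scale, the genes induced by ligation were lost from the 5 CPM limit mainly with SB525334. Of the 266 induced genes, 177 (66.5%) kept 5 CPM in every BDL_Sora library, 193 (72.6%) in every BDL_Nint library and 66 (24.8%) in every BDL_SB525334 library. Of the 207 that were not retained, 107 missed the limit with SB525334 alone, 4 with Sora alone and 0 with Nint alone. A further 59 missed it with all compounds. The share retained differed with the level in vehicle: 6 of 96 induced genes with a BDL_veh mean of 5 to 10 CPM were retained, 26 of 107 at 10 to 20 CPM, 19 of 43 at 20 to 40 CPM and 8 of 20 at 40 CPM or more. In the highest class 19 genes kept the limit with Sora, 20 with Nint and 8 with SB525334. These counts follow from the rule and are a description. CPM uses total counts alone, and on that scaling 57.6% of all genes tested were lower with SB525334 than with vehicle (edgeR adjusted p under 0.05). The share of other coding genes that lost the limit was not computed, so the losses are not shown to be particular to induced genes.

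**Figure D1:**
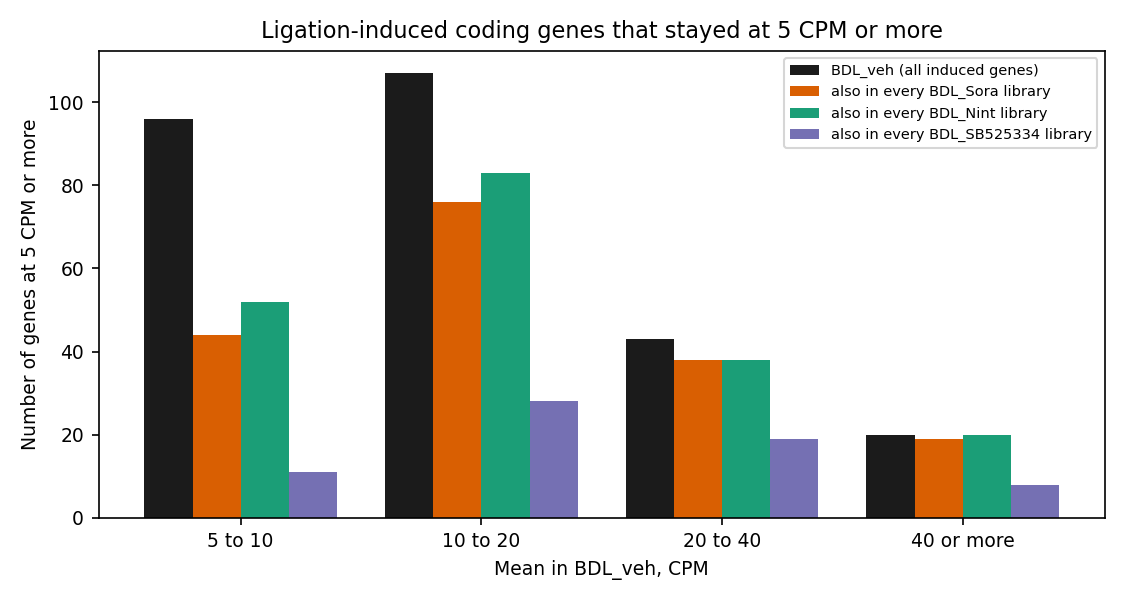
Bars count the genes under 1 CPM in every sham library and at 5 CPM or more in every BDL_veh library, by their mean CPM in BDL_veh (horizontal axis), and those that also held 5 CPM in every library of a compound group (vertical axis, number of genes). The SB525334 bar is the shortest in each class, with 11 of 96, 28 of 107, 19 of 43 and 8 of 20 genes.

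The limits are sharp on a continuous scale. The retained genes nearest the ligated limit had 5.02, 5.30 and 5.37 CPM in their lowest ligated library, and the nearest genes outside it had 4.93, 4.90 and 4.87 CPM, all in SB525334 libraries. On the sham side the 3 nearest retained genes stood at 0.978 CPM in their highest sham library and the nearest excluded genes at 1.01, 1.01 and 1.05 CPM. With limits of 0.5 and 10 CPM, 7 genes remained, all of them among the 59, and with limits of 2 and 2.5 CPM there were 374. When CPM was computed on library sizes scaled by TMM factors (trimmed mean of M values, a correction for libraries dominated by few genes), 57 genes met the rule and 45 of them were among the 59.

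Sham levels of the retained genes were near the detection limit. Their mean in Sham_veh was 0.120 to 0.760 CPM (median over genes 0.392). No gene was at 0 in all sham libraries, and 8 were at 0 in at least 1. In BDL_veh the means ran from 7.74 to 99.5 CPM with a median of 18.95. The fold over sham, from counts pooled within groups, had a median of 61.9 and ran from 12.4 to 293 in BDL_veh. In the compound groups its median was 53.6 for Sora, 58.3 for Nint and 40.3 for SB525334. For the single gene with the narrowest gap, the lowest ligated library stood 5.63-fold over the highest sham library, and the median gap was 12.1-fold. All of these values were fixed in part by the choice of genes and carry no test.

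**Figure D2:**
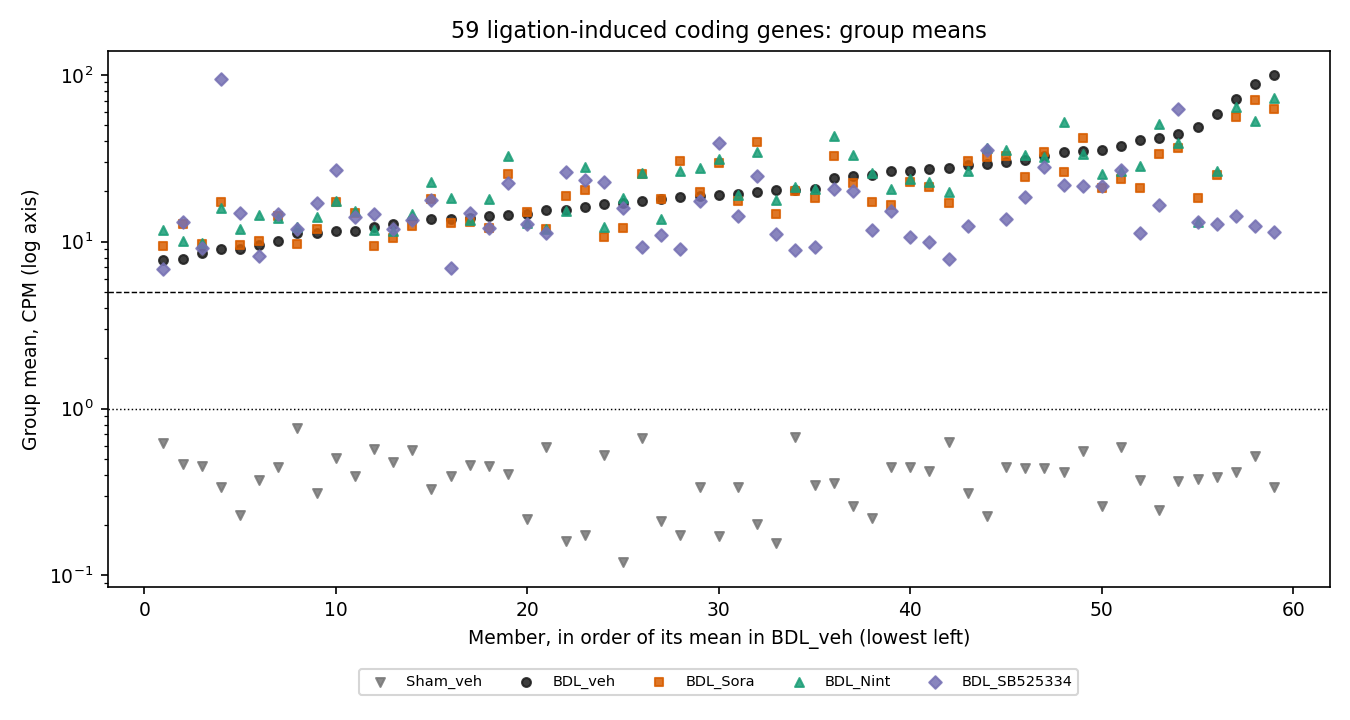
Each position on the horizontal axis is 1 of the 59 retained genes, in the order of its mean in BDL_veh, and the symbols give the mean CPM of each group (vertical log axis). The dotted line marks 1 CPM and the dashed line 5 CPM; the sham means lie between 0.120 and 0.760 CPM, and at the right, among the genes highest in BDL_veh, most SB525334 means lie below the other ligated groups.

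On the CPM scale the lowest of the 4 ligated group means was that of BDL_SB525334 for 34 of 59 genes, of BDL_veh for 14, of BDL_Sora for 10 and of BDL_Nint for 1. The highest was that of BDL_Nint for 24 genes, of BDL_veh for 17, of BDL_SB525334 for 12 and of BDL_Sora for 6. For 44 genes the single lowest ligated library was an SB525334 library, and for 18 of them it was library 8. Among the 8847 coding genes with the same limit the lowest mean was that of SB525334 for 61.1% and the lowest library was an SB525334 library for 65.5%, beside 57.6% and 74.6% of the retained genes. On TMM-scaled library sizes the lowest mean was that of SB525334 for 20 retained genes, of BDL_veh for 20, of BDL_Sora for 15 and of BDL_Nint for 4, so the count of 34 depended on the scale. The ratio of mean CPM to BDL_veh ran from 0.374 to 1.99 for Sora, from 0.269 to 2.27 for Nint and from 0.114 to 10.5 for SB525334, with medians of 0.941, 1.06 and 0.837.

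The compounds were tested against vehicle among ligated slices with edgeR's quasi-likelihood test on 14775 genes, with Benjamini-Hochberg adjustment over all of them, and a gene was called at an adjusted p under 0.05. The rule does not set the direction of these differences, but its 5 CPM limit bounds how far a retained gene could fall. The BDL_veh mean lay 1.55 to 19.9 times above 5 CPM (median 3.79 times), and for 6 genes it lay under 2 times above. A count of falls among the retained genes is limited in this way. The same limit dropped induced genes that fell under it, which favours rises among the genes left. Shares of rises are therefore shaped by the choice of genes too. In whole tissue, fewer cells of a type and less RNA per cell cannot be told apart.

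With SB525334, 23 retained genes rose and 21 fell against vehicle (edgeR adjusted p under 0.05), and 15 were not called. That is 74.6% called, beside 73.0% of all genes tested and 76.7% of the 8847 coding genes that held 5 CPM in every ligated library, so the share called was near the background. The share called higher was 39.0%, beside 38.2% of all genes and 48.5% of those 8847, and the share called lower was 35.6%, beside 34.8% and 28.2%. The large changes went both ways: 8 genes rose at least 2-fold and 8 fell at least 2-fold, each 13.6% of the retained genes. Among the 8847 genes with the same limit, rises of that size made up 8.52% and falls 3.7%. Of all 14775 genes tested, which the limit does not bind, 1481 were called at least 2-fold higher and 1768 at least 2-fold lower. The median log2 fold change of the retained genes was 0.17, beside 0.04 over all genes and 0.16 over the 8847 coding genes with the same limit.

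The direction of the SB525334 calls depended on how libraries were scaled. When only total counts were used for scaling, 14 retained genes (23.7%) were called higher and 28 (47.5%) lower, beside 18.7% and 57.6% of all genes, and the median over all genes moved from 0.04 to -0.38 on the log2 scale, with that of the retained genes at -0.26. Relative to all genes, the retained genes lay about 0.1 log2 units higher under both scalings. This was not particular to them: with TMM factors the 8847 coding genes with the same limit had a median of 0.16, beside 0.17. The median of those 8847 with total counts is not given. On the CPM scale all 9 SB525334 libraries lay below all 10 vehicle libraries for 20 of 59 genes (33.9%), beside 33.3% of all genes, and above them for 3 (5.08%), beside 6.64%. Without the 5 libraries set apart, 31 genes (52.5%) were called higher and 17 (28.8%) lower, beside 38.0% and 35.2% of all genes. The share called higher then lay above that of all genes. For the 8847 coding genes with the same limit it was 48.5% with all libraries and was not computed without those 5.

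Library quality moved with this comparison. The mitochondrial share of reads was 2.86% ± 0.677 (SD, n = 9) in BDL_SB525334 and 1.42% ± 0.0644 (SD, n = 10) in BDL_veh, and the share of non-uniquely mapped reads was 14.4% ± 3.44 (SD, n = 9) and 8.54% ± 0.235 (SD, n = 10). Intronic reads made up 29.97% ± 2.07 (SD, n = 9) and 35.6% ± 0.895 (SD, n = 10). Sham libraries had 2.25% mitochondrial, 11.3% non-unique and 27.4% intronic reads on average. The part of these shares in the SB525334 result was not tested.

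With Sora, 14 retained genes rose and 12 fell (edgeR adjusted p under 0.05). The 26 called are 44.1% of the retained genes, beside 29.3% of all genes tested and 29.1% of the 8847 coding genes with the same limit. Rises made up 23.7% of the retained genes and 16.3% of all genes, and falls 20.3% and 13.0%. Changes were small: 1 gene rose at least 2-fold (0.757% of the 8847) and 2 fell as much (0.814%), and the log2 fold changes ran from -1.36 to 1.05 with a median of -0.04. Of all 14775 genes tested, 492 were at least 2-fold higher and 372 at least 2-fold lower. The groups did not overlap for 10 genes, of which 2 lay above vehicle (all genes 2.1%) and 8 below (all genes 5.66%). In limma on the authors' log2 CPM, 7 rose and 7 fell, 23.7% beside 26.4% of the genes in that fit, so the share above background was not kept. Without the 5 libraries set apart, 16 genes were called higher and 14 lower (19.2% and 13.7% of all genes).

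With Nint, 17 rose and 10 fell. The 27 called make 45.8%, beside 24.3% of all genes tested and 24.0% of the 8847 coding genes with the same limit. Rises made up 28.8% of the retained genes and 13.3% of all genes, while falls made up 16.9% and 10.9%. Again 1 gene rose at least 2-fold (0.735% of the 8847) and 2 fell as much (0.689%), with log2 fold changes from -1.86 to 1.21 (median 0.12). Of all 14775 genes tested, 468 were at least 2-fold higher and 331 at least 2-fold lower. Every Nint library lay above every vehicle library for 5 genes (all genes 2.79%) and below for 3 (all genes 4.55%). In limma on the authors' log2 CPM, 10 rose and 6 fell, 27.1% beside 22.2% of the genes in that fit. Without the 5 libraries set apart, 23 were called higher and 12 lower (17.0% and 11.7% of all genes). The 3 comparisons share the vehicle libraries, so their counts are not independent of each other.

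The induced genes that missed the rule are a description of its other side. Of those 207, 175 were called lower (84.5%, all genes 34.8%) and 12 higher (5.80%, all genes 38.2%) with SB525334. With Sora, 117 were lower (56.5%, all genes 13.0%) and 14 higher (6.76%, all genes 16.3%). With Nint, 102 were lower (49.3%, all genes 10.9%) and 23 higher (11.1%, all genes 13.3%). Each of the 207 was left out for lying under 5 CPM in at least 1 compound library, which need not be a called fall. For 107 of them this was with SB525334 alone. Falls of those 107 with Sora or Nint are not accounted for by the limit in the Sora and Nint libraries.

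Direct comparisons of compounds showed where retained genes differed between them. Nint against Sora gave 4 genes higher (all genes 1.37%) and 2 lower (all genes 0.948%), so that 10.2% were called beside 2.32% of all genes tested. None of these differences reached 2-fold, which 0.0113% of the 8847 coding genes did upward and 0.0452% downward. No retained gene was without overlap between these groups, beside 0.284% of all genes above and 0.0338% below. SB525334 against Sora gave 22 higher (all genes 36.1%) and 19 lower (all genes 36.3%), 69.5% called beside 72.4% of all genes. At least 2-fold higher were 6 (7.44% of the 8847) and at least 2-fold lower 5 (3.04%). Of all 14775 genes tested, 1252 were at least 2-fold higher and 1776 at least 2-fold lower. SB525334 against Nint gave 15 higher (all genes 36.4%) and 21 lower (all genes 36.3%), 61.0% called beside 72.7%. Here 5 were at least 2-fold higher (7.37% of the 8847) and 6 at least 2-fold lower (3.06%). Of all 14775 genes tested, 1263 were at least 2-fold higher and 1794 at least 2-fold lower. With total counts these splits became 10 higher and 27 lower against Sora, beside 19.4% and 56.8% of all genes, and 6 higher and 33 lower against Nint, beside 18.2% and 57.9%. Lower calls then made up 45.8% and 55.9% of the retained genes, so these splits followed the shift of all genes. Doses are not in the labels, so the comparisons are of the slices as treated.

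The call counts of Nint against Sora were the least steady. Fitting the 2 groups alone gave 14 higher and 5 lower, limma on the authors' log2 CPM gave 0 and 0, and leaving out 1 library at a time gave 2 to 7 higher and 1 to 3 lower. The count of 4 higher became 7 without BDL_Sora library 3 and 2 without BDL_Sora library 5, BDL_Sora library 6 or BDL_Nint library 1. The 2 lower became 1 without any one of BDL_Sora libraries 2, 6, 7, 8, 9 and 10 and BDL_Nint libraries 1, 4, 7, 8 and 10.

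The calls are given by vehicle level as a description only, because the choice of genes shapes them. Both the order and the fold changes use the vehicle libraries, and the 5 CPM limit removed genes with low vehicle levels that fell, which favours rises among the retained genes at that end. Of the 10 retained genes highest in BDL_veh (means of 35.5 to 99.5 CPM), 7 fell and 1 rose with SB525334, with a median log2 fold change of -1.44. In the same 10, 6 fell with Sora (median -0.61) and 7 with Nint (median -0.46), and 0 rose with either. Of the 29 genes ranked 31 to 59, 19 rose and 4 fell with SB525334 (median 0.53), 11 rose and 2 fell with Sora, and 13 rose and 1 fell with Nint. The 20 genes between them were mixed, with 3 higher and 10 lower for SB525334, 3 and 4 for Sora, and 4 and 2 for Nint. Over all genes tested, 38.2% were called higher and 34.8% lower with SB525334, 16.3% and 13.0% with Sora, and 13.3% and 10.9% with Nint. Shares for other genes at like vehicle levels are not given, so the order by level is not shown to be particular to the retained genes.

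SB525334 against Sora does not use vehicle libraries in its contrast, but the ranking and the limit are the same, so it is no independent check. There, 6 of the top 10 were lower and 3 higher (median -0.57), and 17 of the 29 lowest were higher and 4 lower (median 0.39). Against Nint these were 6 and 3 (median -0.80), and 11 and 5 (median 0.30). Over all genes tested, 36.1% were higher and 36.3% lower against Sora, and 36.4% and 36.3% against Nint.

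**Figure D3:**
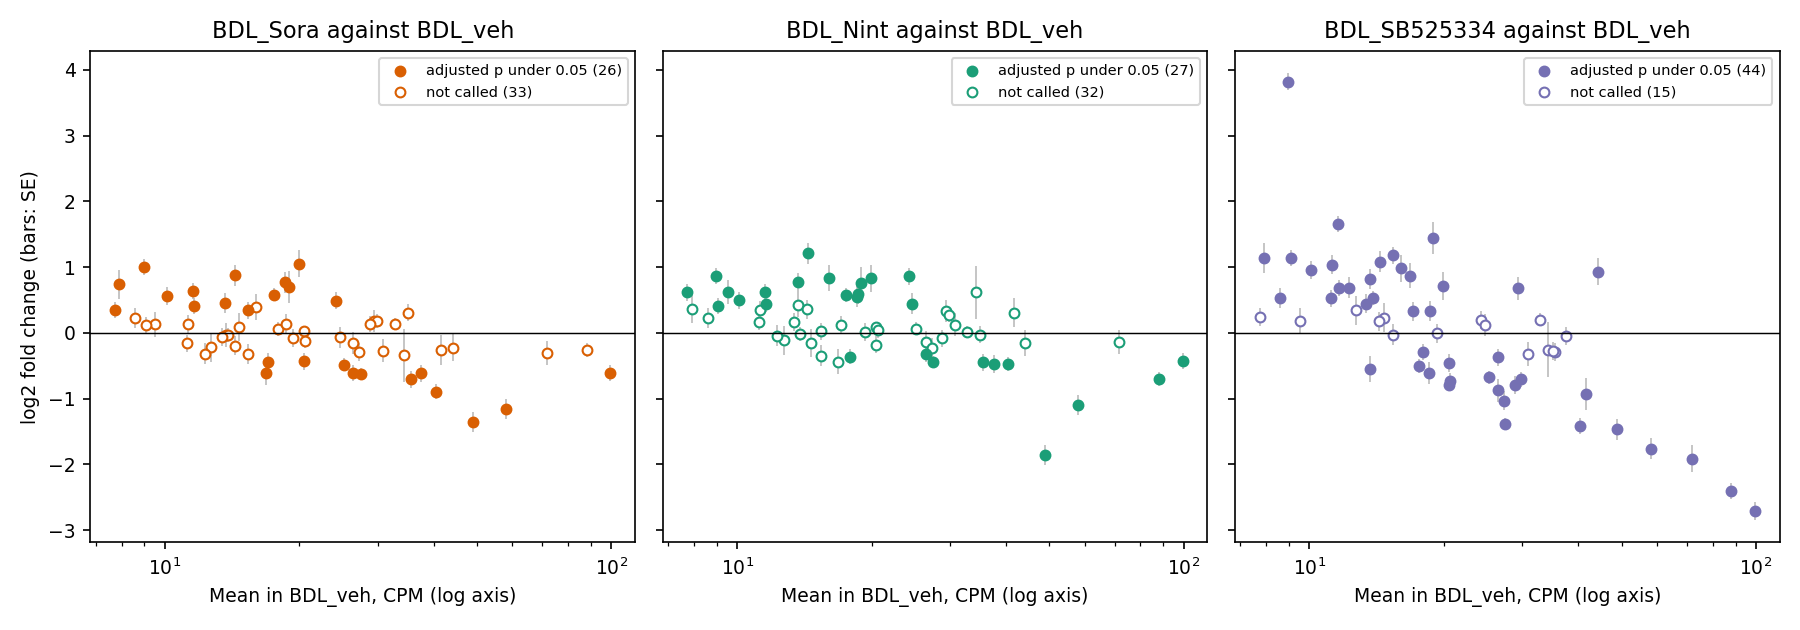
Each point is 1 of the 59 retained genes, with its mean in BDL_veh (horizontal log axis, CPM) and its log2 fold change against BDL_veh from edgeR (vertical axis; bars are standard errors); filled points passed an adjusted p under 0.05. Called genes number 26 for Sora, 27 for Nint and 44 for SB525334, and the lowest SB525334 point, at -2.71, is also the gene with the highest vehicle mean.

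The same limit holds for the summed level of the 10 genes highest in vehicle: they were picked for high values in the vehicle libraries, which by itself favours lower values in every other group. Their sum was 522 to 626 CPM in BDL_veh libraries (median 566), 331 to 430 with Sora (median 371), 348 to 452 with Nint (median 398) and 153 to 245 with SB525334 (median 194). No compound library reached the lowest vehicle library. The sum of the other retained genes overlapped between vehicle and each compound group. Its medians were 911 CPM in BDL_veh, 930 with Sora, 1064 with Nint and 805 with SB525334, and SB525334 libraries covered the range from 669 to 1091 CPM. The 59 retained genes together summed to a median of 23.2 CPM in sham libraries, 1477 in BDL_veh, 1306 with Sora, 1457 with Nint and 997 with SB525334. Computed on TMM-scaled library sizes the last 4 medians were 1324, 1206, 1319 and 1249 CPM, and without the 5 libraries set apart that of SB525334 was 1180 CPM.

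**Figure D4:**
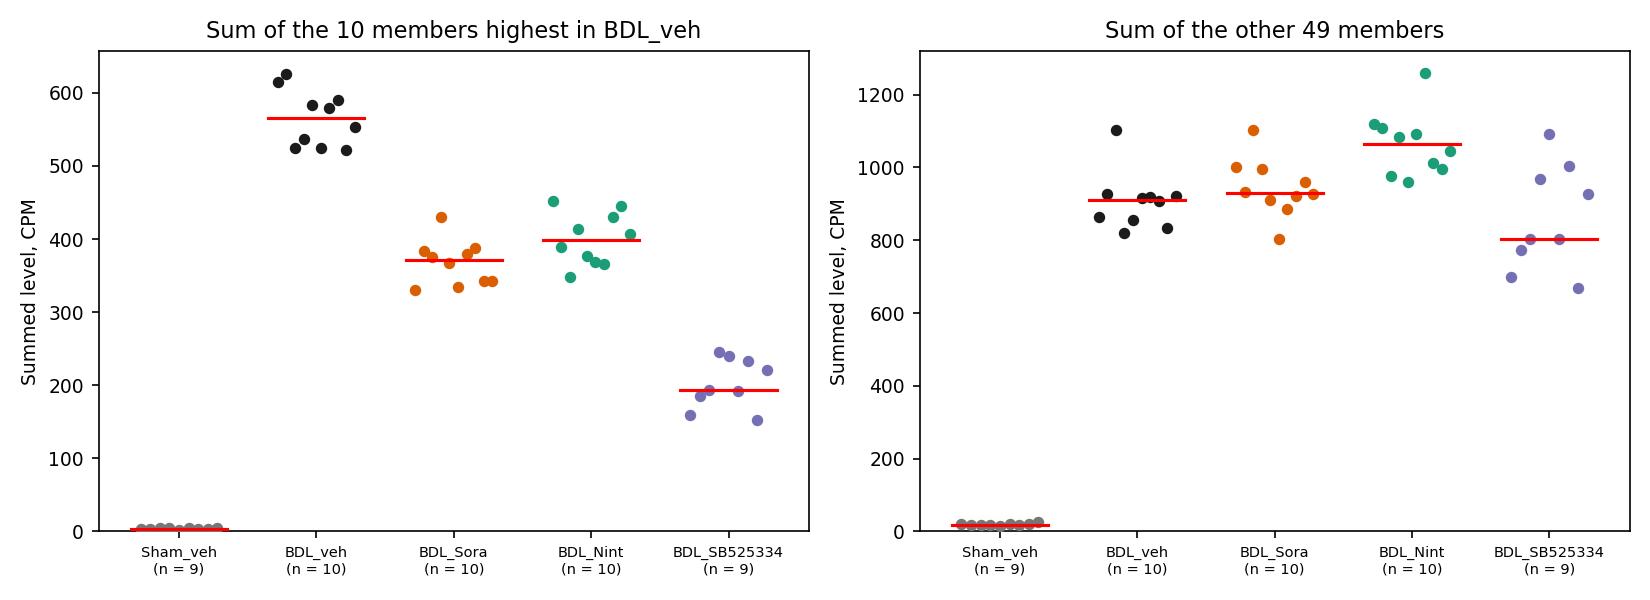
Points are libraries and red lines group medians of the summed CPM (vertical axis, from 0) of the 10 retained genes highest in BDL_veh (left) and of the other retained genes (right), by group. The 10 genes were picked by their BDL_veh level; on the left all compound libraries, at 452 CPM or less, lie below all vehicle libraries, at 522 CPM or more; on the right the ligated groups overlap.

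ENSRNOG00000011907 had the largest rise with SB525334 of all retained genes. Its level was 0.0738 to 0.908 CPM in sham libraries (median 0.355), 6.93 to 11.3 in BDL_veh (median 9.16), 14.1 to 20.3 with Sora (median 17.3), 13.2 to 18.3 with Nint (median 16.2) and 65.1 to 129 with SB525334 (median 96.6). Sham, vehicle and SB525334 libraries formed 3 separate ranges, with Sora and Nint overlapping each other in between. Against vehicle the log2 fold change was 3.82 with SB525334 (SE 0.131, edgeR adjusted p = 1.13e-28; n = 9 and 10), 1.0 with Sora (SE 0.122, edgeR adjusted p = 1.03e-08) and 0.86 with Nint (SE 0.123, edgeR adjusted p = 3.21e-07). SB525334 also exceeded Sora by 2.82 and Nint by 2.96 log2 units (edgeR adjusted p = 2.68e-24 and 5.63e-25). Nint and Sora differed by -0.14 (95% interval -0.38 to 0.10), which was not called. This gene ranked 56 of 59 by its vehicle level, and with SB525334 its mean of 94.5 CPM was the highest of any retained gene in that group.

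ENSRNOG00000026870 was the retained gene with the highest vehicle level and the largest fall with SB525334. Sham libraries held 0.0583 to 0.619 CPM (median 0.349), BDL_veh libraries 62.4 to 127 (median 107), Sora libraries 47.5 to 79.1 (median 63.9), Nint libraries 54.7 to 98.2 (median 72.0) and SB525334 libraries 7.77 to 15.2 (median 10.9). The SB525334 libraries lay apart from all other ligated libraries and still above every sham library, while Sora and Nint overlapped vehicle. Against vehicle the log2 fold change was -2.71 with SB525334 (SE 0.136, edgeR adjusted p = 2.02e-22), -0.61 with Sora (SE 0.120, edgeR adjusted p = 9.17e-05) and -0.42 with Nint (SE 0.119, edgeR adjusted p = 0.00611). Compared directly, SB525334 lay below Sora by -2.10 and below Nint by -2.29 log2 units (edgeR adjusted p = 1.30e-18 and 7.50e-20). In limma on the authors' log2 CPM the Sora and Nint calls were lost (adjusted p = 0.0641 and 0.234), and the Nint call was also lost when the number after the letter in the library codes, which no label explains and which was read as a plate column, was a factor (edgeR adjusted p = 0.0821). These column numbers were spread unevenly: the lowest occurred in every compound group and in no BDL_veh library. A fit with the column therefore does not cleanly separate it from the compound.

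ENSRNOG00000025581 had the largest rise with Nint. It stood at 0.230 to 0.664 CPM in sham libraries (median 0.418), 12.5 to 16.9 in BDL_veh (median 13.98), 19.9 to 31.6 with Sora (median 25.4), 27.5 to 38.4 with Nint (median 34.4) and 9.77 to 41.3 with SB525334 (median 18.7). All Sora and Nint libraries lay above all vehicle libraries, whereas the SB525334 libraries ran from below the vehicle range to above the Nint range. Its log2 fold change was 1.21 with Nint (SE 0.159, edgeR adjusted p = 6.18e-08), 0.88 with Sora (SE 0.158, edgeR adjusted p = 2.60e-05) and 1.08 with SB525334 (SE 0.163, edgeR adjusted p = 9.30e-08). The last value ran from 0.65 to 1.40 over the alternatives. Differences between compounds were not called: 0.33 for Nint against Sora (95% interval 0.02 to 0.64, edgeR adjusted p = 0.278) and -0.13 for SB525334 against Nint (95% interval -0.45 to 0.20, edgeR adjusted p = 0.483).

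ENSRNOG00000013674 had the largest fall with both Nint and Sora. Its level was 0.148 to 0.575 CPM in sham libraries (median 0.358), 32.8 to 62.9 in BDL_veh (median 50.9), 11.4 to 27.9 with Sora (median 18.2), 9.98 to 18.1 with Nint (median 12.6) and 6.13 to 22.4 with SB525334 (median 13.4). Every compound library lay below every vehicle library and far above sham, and the compound groups overlapped. The log2 fold change was -1.86 with Nint (SE 0.157, edgeR adjusted p = 7.53e-13), -1.36 with Sora (SE 0.153, edgeR adjusted p = 1.61e-09) and -1.47 with SB525334 (SE 0.161, edgeR adjusted p = 3.36e-11). Nint against Sora gave -0.50 (95% interval -0.81 to -0.19, edgeR adjusted p = 0.0724), which was not called. SB525334 lay above Nint by 0.39 (edgeR adjusted p = 0.0276), a call that was lost in several alternatives and turned to -0.01 with total counts.

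**Figure D5:**
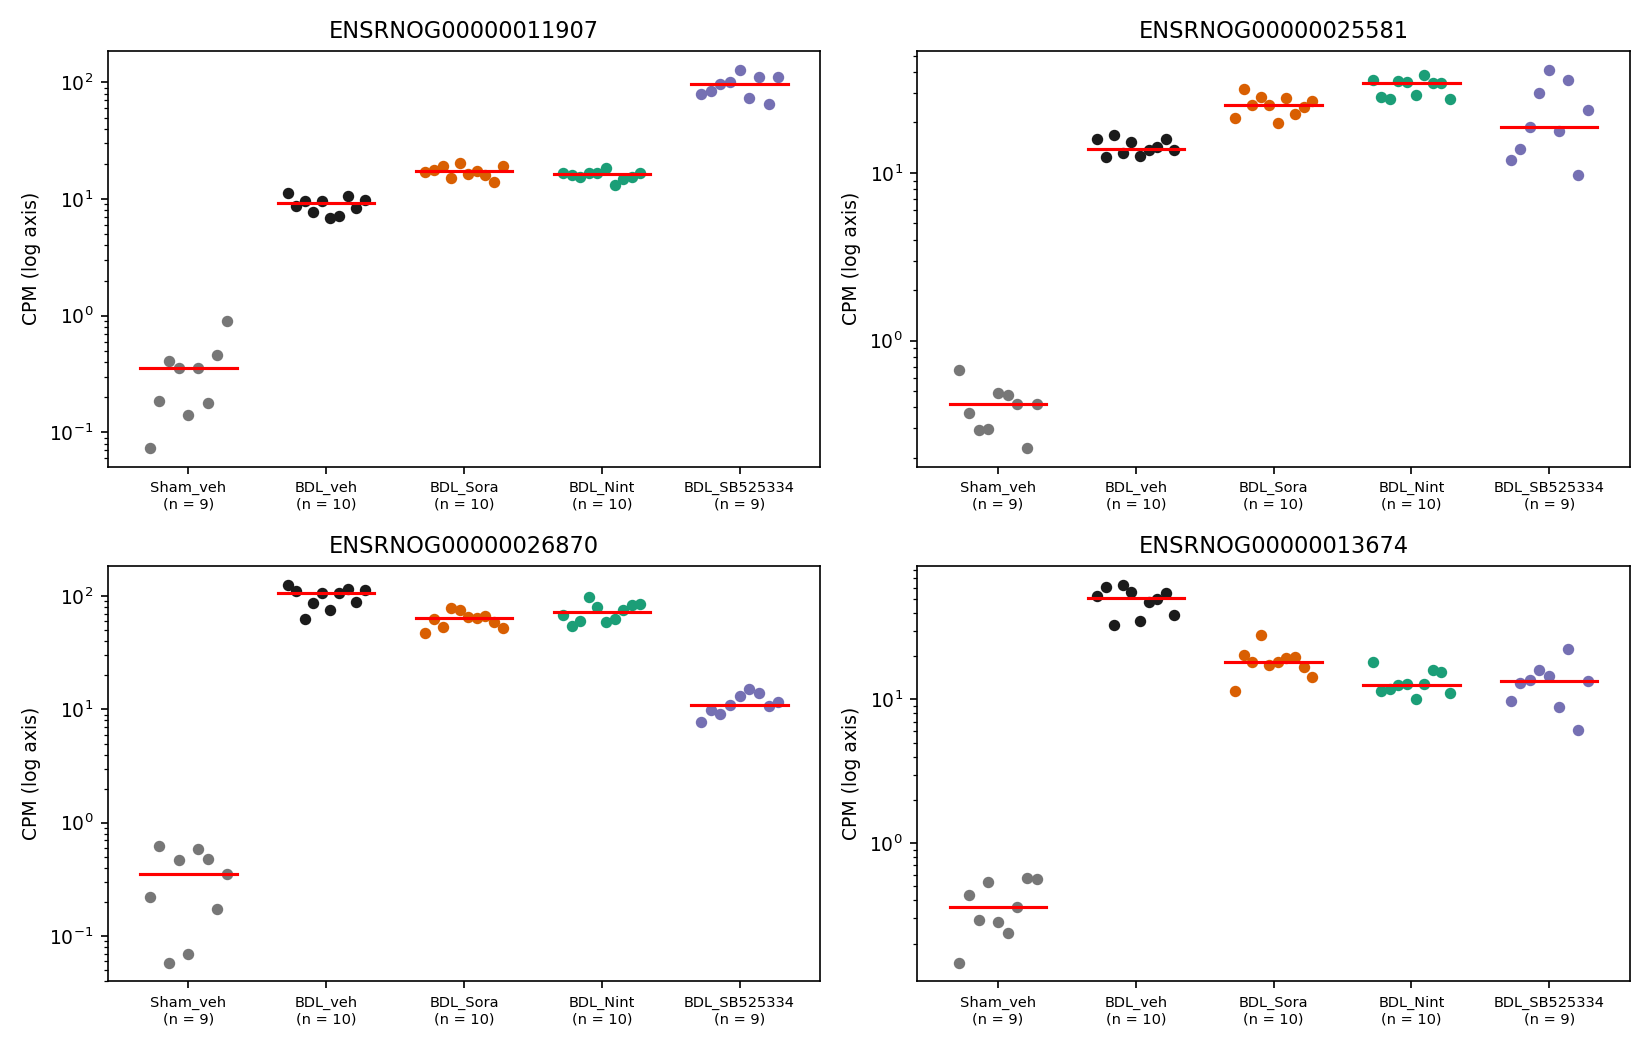
Points are libraries and red lines group medians of CPM (vertical log axes) for the 4 genes described by identifier, by group. In ENSRNOG00000011907 the SB525334 libraries (65.1 to 129 CPM) lie above all others, in ENSRNOG00000026870 (7.77 to 15.2 CPM) below all other ligated libraries, and in ENSRNOG00000013674 all compound libraries lie below vehicle.

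The gene with the largest rise with Sora had 13.4 to 35.4 CPM in BDL_veh (median 18.7), 25.2 to 56.7 with Sora (median 41.6), 15.7 to 54.1 with Nint (median 31.7) and 10.1 to 36.2 with SB525334 (median 25.5). These ranges overlap between vehicle and each compound. Its log2 fold change was 1.05 with Sora (SE 0.205, edgeR adjusted p = 9.10e-05), 0.83 with Nint and 0.71 with SB525334.

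The steadiest retained gene, by its largest absolute change against vehicle, had log2 fold changes of -0.08 with Sora, 0.01 with Nint and -0.01 with SB525334, none of them called. Its level was 0.0619 to 0.583 CPM in sham libraries and had medians of 19.2 CPM in BDL_veh (15.8 to 24.4), 18.1 with Sora (12.4 to 24.2), 19.3 with Nint (15.2 to 23.6) and 15.5 with SB525334 (9.04 to 19.1). This holds with TMM factors: its ratio of mean CPM to vehicle was 0.739 with SB525334, and on the CPM scale another gene was the steadiest, with ratios of 0.941, 0.968 and 1.07 for Sora, Nint and SB525334. For the former gene the 95% intervals of the log2 fold changes were -0.35 to 0.20 for Sora, -0.26 to 0.29 for Nint and -0.29 to 0.28 for SB525334. Its ligated ranges overlapped throughout.

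Some retained genes varied widely within a group. The coefficient of variation over libraries had a median of 0.144 in BDL_veh, 0.169 with Sora, 0.169 with Nint and 0.275 with SB525334. The most uneven gene, picked after its values were seen, ran from 12.03 to 127 CPM in BDL_veh, from 6.94 to 81.3 with Sora, from 16.2 to 135 with Nint and from 6.88 to 31.1 with SB525334. It was not called in any of the comparisons with vehicle.

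Over 1711 gene pairs, the median Pearson correlation of log2(CPM + 1) across libraries was 0.528 among the 9 SB525334 libraries, and 0.053, 0.145 and 0.131 among the 10 libraries each of BDL_veh, BDL_Sora and BDL_Nint. Over the 8847 coding genes with the same limit the medians were 0.0719 for SB525334 and 0.0872, 0.117 and 0.136 for the others. The first principal component held a like share of the variance of the retained genes in SB525334 (67.9%), BDL_veh (65.3%) and Sora (62.3%), and 35.7% in Nint. Over the 8847 coding genes it held 70.2% in SB525334, 51.4% in BDL_veh, 61% in Sora and 39.1% in Nint. Pairs share their libraries and the library total, so these are descriptions. The mean deviation of the retained genes from their group mean ran from -0.36 log2 units in SB525334 library 8 and -0.30 in library 1 to 0.33 in library 5, whereas in BDL_veh it ran from -0.11 to 0.13. Libraries 1 and 8 are among those set apart above, with 857 and 821 CPM summed over the retained genes, and library 5 held 1331 CPM. Their mitochondrial shares were 2.48%, 2.45% and 2.82%, and their non-unique shares 11.27%, 10.94% and 15.18%; the part of these shares in the variation was not tested.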

How the data were processed

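RNA sequencing libraries from 48 rat liver slice samples were analysed in 5 groups taken from the labels. RSEM, edgeR and the genome build Rnor_6.0 are named without versions, per the submitters' processing notes; the aligner, the annotation and the strand setting are not stated in these sources, so counts of overlapping or near-identical genes are uncertain. The main deposited table has unnormalised expected counts of 32883 genes (8.02% not whole at a tolerance of 1e-06), rounded here for count tests. The table of log2 CPM values deposited by the authors served to define coding genes and for 1 alternative fit. The 172 quality metrics deposited by the authors gave the read shares.

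CPM was the count over the library total. The test was edgeR 4.0.16 (R 4.3.3): TMM factors, filterByExpr, glmQLFit with robust estimation and glmQLFTest, 2-sided, 1 coefficient per group over all 48 libraries, 6 comparisons, with Benjamini-Hochberg adjustment over 14775 genes. It was also run on simulated counts with few changed genes and the same spread for every gene. That setting does not cover the shift of all genes between scalings seen with SB525334. Alternatives were RLE factors, total counts, DESeq2 1.42.0, other filters, the 2 groups alone, limma 3.58.1, a replicate block, a column number read from the library codes and left-out libraries; leaving out single ligated libraries and the TMM-scaled levels and correlations were chosen after seeing the data.

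No 2 libraries of a group agreed within sampling noise (lowest chi-square per degree of freedom 3.94 over 207 pairs). Limits for a count of 0 cover counting error only. The retained genes and all lists were chosen with earlier results of these data known. The 21 gene lists and the cell type markers need symbols, and the reference table (GRCr8, 47357 genes) holds 0 Ensembl identifiers, so none was used. Under the naming rule for genes without symbols, the largest rises and falls by log2 fold change with SB525334 and Nint are given by identifier; the gene with the largest rise with Sora and the steadiest gene follow the same rule without identifier.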

Additional observations from a re-analysis of the deposited data

Results flagged for a closer look

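Of 45 sets of libraries examined for a single library far from the rest of its group, 4 had one. Chance alone gives about 1 in 20 in sets not chosen by their spread. The most uneven gene was picked for its spread, so that rate does not apply to it. The median level of the retained genes in BDL_Sora library 6 was 15.34 CPM, the lowest of its group, with the next library at 17.51 CPM. ENSRNOG00000011907 stood at 0.908 CPM in Sham_veh library 9, the next sham library at 0.460 CPM. The most uneven retained gene reached 126.9 CPM in BDL_veh library 3, beside 51.8 CPM in the next. The gene with the largest rise with Sora reached 35.4 CPM in BDL_veh library 10, beside 23.2 CPM in the next.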

How the results depend on the processing

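All 12 counts of retained genes called stayed within 1.5 times of the reported value with RLE factors, DESeq2, no low-count filter and a low-count filter that asked 5 CPM in 9 libraries. With total counts the SB525334 calls became 14 higher against vehicle, 10 higher against Sora, and 6 higher and 33 lower against Nint. The cause was not tested beyond the shift of all genes given above. In limma on the authors' log2 CPM the counts were 7 and 7 for Sora, 10 and 6 for Nint, 0 and 0 for Nint against Sora, and 14 higher for SB525334 against Sora; the cause was not tested. For Nint against Sora, fitting the 2 groups alone gave 14 higher and 5 lower and leaving out the 5 libraries gave 9 higher. Leaving out those 5 gave 24 higher for SB525334 against Nint. With the column number read from the library codes as a factor, 0 were lower with Nint than with Sora. The column numbers were spread unevenly over the groups, so that fit is no clean check. Leaving out 1 ligated library at a time gave 21 to 25 higher and 20 to 23 lower for SB525334, 12 to 15 and 12 to 14 for Sora, 15 to 21 and 9 to 11 for Nint, 2 to 7 and 1 to 3 for Nint against Sora, 18 to 24 and 18 to 20 for SB525334 against Sora, and 13 to 20 and 19 to 23 for SB525334 against Nint. The number of retained genes was 59 to 66 without any 1 library, 7 and 374 with stricter and looser limits. Every library must pass the rule, so leaving 1 out could only keep or add genes. On TMM-scaled library sizes 57 genes met the rule, 45 of them among the 59. Same-numbered libraries did not deviate together in every pair of groups. Among ligated groups their median correlation ran from -0.033 (BDL_veh with BDL_SB525334) to 0.164 (BDL_veh with BDL_Nint, beside 0.023 over all library pairs). In all 5 groups the replicate numbers follow the order of the library codes, so a shared number gives no sign of a shared rat. The correlations cannot decide the point, and the numbers were not used for pairing in the main fit. With the replicate block SB525334 gave 21 higher and 22 lower, Nint against Sora 1 lower, and every other count stayed within 1.5 times. Because the numbers follow the codes, that block is no check on pairing by rat. Among the genes given by identifier, ENSRNOG00000025581 turned to -0.17 for SB525334 against Sora with total counts and to 0.17 against Nint without the 5 libraries, and ENSRNOG00000013674 to -0.011 against Nint with total counts and 0.17 against Sora without the 5 libraries. Sham levels lie near the depth limit, so differences among sham libraries were not examined.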
